A study of Mus musculus with 5 samples.

Results

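Binding sites of the transcription factors Hand1 and Foxf1 were examined at 10 genes of the bone morphogenetic protein (BMP) pathway in differentiating mouse cells. The genes were taken from a fixed list of 4 ligand genes (Bmp2, Bmp4, Bmp5 and Bmp7) and 6 target genes (Id1, Id2, Smad6, Smad7, Msx1 and Msx2), out of 49943 genes in the gene table. Every deposited peak whose summit lay in one of these genes, or within 100 kb of either end, was counted as a site. This gave 2 of the 1134 Hand1 peaks and 18 of the 5703 Foxf1 peaks. The rule used position alone, so fold enrichment, peak width and overlap between the lists played no part in the choice.

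The measurements were chromatin immunoprecipitation followed by sequencing (ChIP-seq) in E14, a mouse embryonic stem cell line. Hand1-HA came from a knock-in at the Hand1 gene and was precipitated at a stage abbreviated MES, after 48 h as embryoid bodies and 40 h of re-aggregation with VEGF, Activin A and 0.3 ng/ml BMP4. Foxf1-HA came from an inducible overexpression construct and was precipitated at a stage abbreviated CP, after a further 32 h as a monolayer with VEGF, basic FGF and FGF10. An anti-HA antibody was used in both. The 5 samples fall into 4 groups, namely 1 Hand1-HA library, 2 Foxf1-HA libraries and 1 input library per stage, made from chromatin without precipitation. The Foxf1 list is deposited under replicate 1, and whether it was made from that library alone is not given in the sources used here. With 1 peak list per factor, no value below has a replicate error and no difference between the lists was tested. Factor, stage and way of expression differ together and cannot be told apart. Peak lists hold no expression values, so neither the labelled cell type nor the level of any of these genes could be checked.

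BMP ligands are secreted as dimers and bind receptor pairs at the cell surface, which phosphorylate Smad1, Smad5 and Smad9. These enter the nucleus with Smad4 and switch on direct targets. The Id genes encode inhibitors that bind basic helix-loop-helix (bHLH) partner proteins without binding DNA, Msx1 and Msx2 encode homeodomain repressors, and Smad6 and Smad7 encode inhibitory Smads that feed back on the receptors. In the early embryo BMP signalling is known for its part in forming mesoderm and in the choice of the cardiac fate. Hand1 is itself a bHLH factor, and Foxf1 is a forkhead factor of the lateral and splanchnic mesoderm.

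Where a site covered a promoter that was matched to a sequence, the promoter belonged to a neighbouring gene. RefSeq promoters (GRCm38.p6, 250 bases before to 50 after the start) were matched for 6 of the 10 genes, Bmp4, Bmp5, Id2, Smad6, Msx1 and Msx2. None of these 6 promoters shared a base with a peak of either list, and the closest summit lay 2.28 kb away, at Msx1. The share of all RefSeq promoters that a peak covered was not counted, so this result has no background beside it. Sites of the listed genes instead covered 4 promoters of 3 other genes: H13 and Bcl2l1 in the Id1 window (2 promoters of Bcl2l1) and the non-coding Gm39360 in the Smad6 window. Of the 4 promoters, 3 are printed, because a Foxf1 summit lay 54 bp (H13), 34 bp (Bcl2l1) and 102 bp (Gm39360) from their start sites. The Id2 and Msx1 promoters are printed for contrast, since a Foxf1 site lay 3.65 kb and 2.28 kb from their starts and left the promoter uncovered. All are 5′ to 3′ on the strand of the gene, and capitals mark every match to the motifs named after them.
Gm39360 (minus strand, chr9:64100506-64100805): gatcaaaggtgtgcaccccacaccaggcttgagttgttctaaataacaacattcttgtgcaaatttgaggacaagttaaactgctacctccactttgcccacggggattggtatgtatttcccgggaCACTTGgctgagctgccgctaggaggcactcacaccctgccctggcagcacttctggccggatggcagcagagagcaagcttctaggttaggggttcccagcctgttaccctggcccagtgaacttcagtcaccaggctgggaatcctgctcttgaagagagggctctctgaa
Bcl2l1 (minus strand, chr2:152830668-152830967): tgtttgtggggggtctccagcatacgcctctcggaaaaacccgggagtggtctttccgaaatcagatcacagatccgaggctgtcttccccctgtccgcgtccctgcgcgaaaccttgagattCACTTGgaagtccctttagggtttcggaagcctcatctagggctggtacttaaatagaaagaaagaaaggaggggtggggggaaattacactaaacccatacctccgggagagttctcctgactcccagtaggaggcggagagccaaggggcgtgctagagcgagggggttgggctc
H13 (plus strand, chr2:152669211-152669510): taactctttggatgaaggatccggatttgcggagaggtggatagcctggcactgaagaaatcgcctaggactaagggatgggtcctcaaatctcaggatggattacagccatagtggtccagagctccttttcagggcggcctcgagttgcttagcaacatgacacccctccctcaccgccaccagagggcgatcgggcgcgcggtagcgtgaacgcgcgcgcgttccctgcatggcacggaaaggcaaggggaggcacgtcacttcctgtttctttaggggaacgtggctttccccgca
Id2 (minus strand, chr12:25096043-25096342): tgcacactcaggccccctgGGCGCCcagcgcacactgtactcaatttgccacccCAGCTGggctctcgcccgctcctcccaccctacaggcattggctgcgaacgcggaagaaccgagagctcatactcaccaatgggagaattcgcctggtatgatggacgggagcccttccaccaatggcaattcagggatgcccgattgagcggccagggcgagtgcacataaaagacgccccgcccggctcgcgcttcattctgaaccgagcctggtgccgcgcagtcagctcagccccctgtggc
Msx1 (minus strand, chr5:37824536-37824835): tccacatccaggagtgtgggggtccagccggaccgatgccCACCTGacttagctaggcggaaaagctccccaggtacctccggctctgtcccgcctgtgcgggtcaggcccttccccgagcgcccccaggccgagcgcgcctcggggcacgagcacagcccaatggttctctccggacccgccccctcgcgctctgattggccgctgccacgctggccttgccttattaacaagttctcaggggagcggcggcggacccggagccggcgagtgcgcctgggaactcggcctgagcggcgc

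The motifs searched, on both strands, were the E-box CANNTG that bHLH factors bind, its form CATCTG (a match to CATCTG is also a match to CANNTG), the forkhead motif TGTTTAC, the forkhead core TAAACA (every match to TGTTTAC is also one to TAAACA on the other strand) and the Smad1/5 element GGCGCC. An E-box was present in 5 of the 6 promoters of the listed genes and in 72.3% of the 32851 promoters in the table. CATCTG was in 0 of the 6 (17.2% of all promoters), TGTTTAC in 0 (3.65%) and TAAACA in 0 (13.4%). GGCGCC was in 1 of the 6, the Id2 promoter shown above, against 11.9% of all. Of the 4 promoters that lay under a site, 3 had an E-box, 1 had CATCTG and 0 had a match to either forkhead pattern or to GGCGCC. These counts describe the letters in these windows, which are the only stretches of the sites for which sequence was used here.

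Foxf1 sites outnumbered Hand1 sites at these genes, but the Foxf1 list was also the longer, with 5703 peaks against 1134. By raw count more Foxf1 sites lay at the 6 targets than at the 4 ligands. That order did not hold when the listed gene had to be the nearest protein-coding gene, as given below. In the Foxf1 list, 7 of the 10 genes had a site: Bmp4, Bmp7, Id1, Id2, Smad6, Msx1 and Msx2. Over all 21887 protein-coding genes the share with a Foxf1 site by the same rule was 53.3%. In the Hand1 list 2 of the 10 genes had a site, Bmp7 and Smad6, against 9.90% of all protein-coding genes. Those same genes were the 2 with sites in both lists, against 7.65% of protein-coding genes. The gene windows averaged 233 kb for the 10 genes and 248 kb for all protein-coding genes. Bmp2, Bmp5 and Smad7 had no site in either list.

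**Figure D1:**
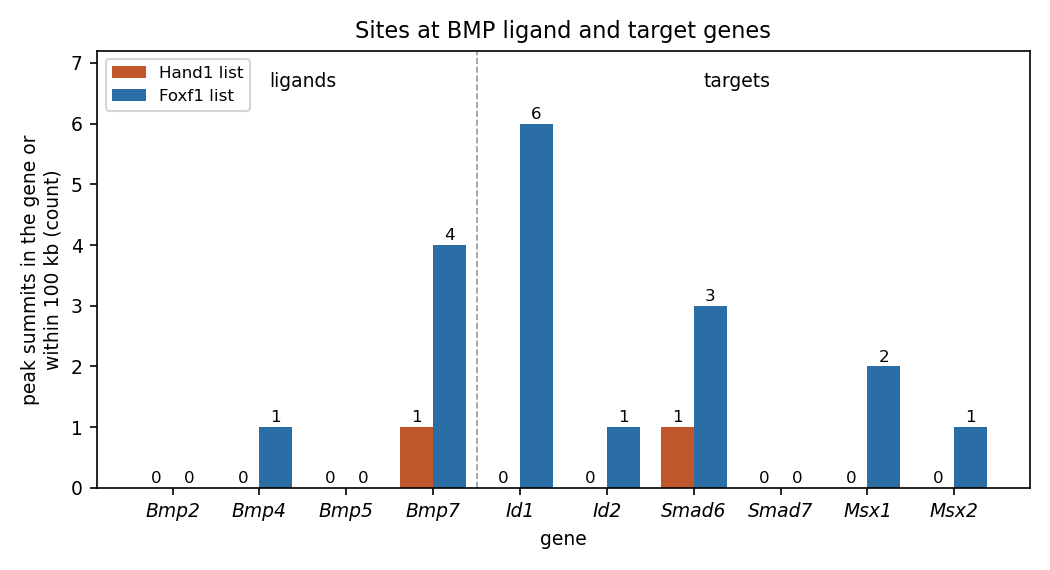
Number of peak summits (vertical axis, count) in each gene or within 100 kb of it, for the Hand1 list and the Foxf1 list; the dashed line parts the 4 ligand genes from the 6 target genes. Id1 has 6 Foxf1 sites and Bmp7 has 4, and Bmp2, Bmp5 and Smad7 have 0 in both lists.

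The ligand genes held 5 Foxf1 sites and the targets 13. Per gene this was 1.25 for ligands and 2.17 for targets, where all protein-coding genes had a mean of 1.25 (1.246 before rounding) and a median of 1. Relative to the length of sequence searched, there were 4.93 Foxf1 sites per Mb at ligands, 9.92 at targets and 5.02 over the windows of all protein-coding genes. Within the targets the Id genes had 7 sites, the Msx genes 3 and the Smad genes 3. Each Hand1 group held 1 site, a density of 0.985 per Mb at ligands and 0.763 at targets beside 1.13 for all protein-coding genes. Over all protein-coding genes the median number of Hand1 sites was 0 and the highest 66, so 1.13 does not describe a typical gene. Id1 alone had 6 of the 13 target sites, and its window also covers 4 other protein-coding genes. When a site was kept only if the listed gene was its nearest protein-coding gene, the order turned round, with 5 sites at ligands and 4 at targets.

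**Figure D2:**
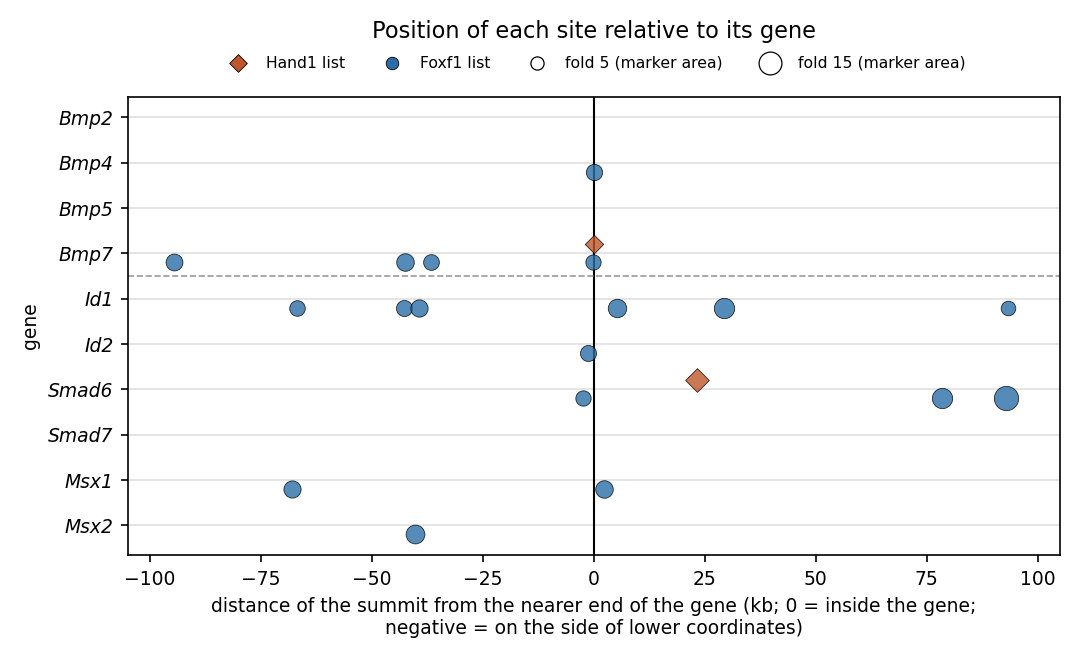
Distance in kb of each summit from the nearer end of its gene (0 for summits inside the gene, negative on the side of lower coordinates), with marker area in proportion to fold enrichment within each list. Foxf1 sites of Id1 and Bmp7 spread along the window, and the 2 markers of highest fold at Smad6 lie 78.6 and 92.8 kb from the gene.

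Among the ligands, Bmp7 had sites of both factors and Bmp4 a single Foxf1 site. Bmp7 encodes a ligand of the BMP5/6/7 subgroup and Bmp4 one of the BMP2/4 subgroup, the latter being the ligand added to the medium at MES. The Foxf1 site of Bmp4 (chr14:46385786-46386718) lay inside the gene, 4.37 kb downstream of the start site. Its fold enrichment, the authors' linear ratio of signal at the summit to the background of the peak caller, was 7.61. That is at the middle of the list, whose median was 7.62, with 50.0% of Foxf1 peaks at or above it. The summit was inferred to hold 22 fragments, and counting error alone gave the fold a 95% range of 4.90 to 11.4. It was the only one of the 18 Foxf1 sites inside the gene it was counted for.

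The 4 Foxf1 sites of Bmp7 all lay on the side of lower coordinates. The nearest (chr2:172866944-172867955) was 0.265 kb from a gene end, with a fold of 6.70 (95% counting range 4.31 to 9.99). The others lay at 36.7 kb (fold 7.14, range 4.79 to 10.3), 42.6 kb (fold 8.88, range 6.30 to 12.2) and 94.6 kb (fold 8.16, range 5.63 to 11.5). The 4 counting ranges overlap one another, so the order of these folds was not resolved. No protein-coding gene lay nearer to any of the 4 than Bmp7. Strand was taken from the matched promoters. For genes without one, Bmp7 and Id1 among them, which gene end holds the start site was therefore not determined. The Hand1 site of Bmp7 (chr2:172925009-172925392) lay inside the gene, 15.1 kb from the nearer end and within the span of the lncRNA gene Gm40010, with a fold of 4.90 (range 3.12 to 7.37). This was a weak peak of its list, with 92.5% of Hand1 peaks at or above its fold and a −log10 q-value of 6.40. Hand1 peaks started at a −log10 q-value of 5.01 and Foxf1 peaks at 10.01, so this site was below every peak of the Foxf1 list on that measure. It lay 57.4 kb from the nearest Foxf1 summit.

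Bmp2 and Bmp5 had no site within the limit. The nearest peak to Bmp2, which encodes the close relative of Bmp4, was a Hand1 peak 671 kb away (fold 9.47), and the nearest Foxf1 peak was 706 kb away (fold 5.40). For Bmp5 the nearest Foxf1 peak was 337 kb away. A Hand1 peak of fold 8.43 lay 107 kb from Bmp5, just beyond the distance limit. Bmp5 had the widest window of the 10 genes, 325 kb.

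Of the Id genes, Id1 had the most Foxf1 sites of all 10 genes and Id2 had 1. At least 6 Foxf1 sites were found at 2.99% of protein-coding genes. Only the site closest to Id1 (chr2:152742423-152742808) had Id1 as its nearest protein-coding gene. It lay 5.22 kb from a gene end and had a fold of 9.79 (range 6.90 to 13.5), with 19.1% of the list at or above it. The site of highest fold (chr2:152766290-152766981, 11.9, range 8.23 to 16.6) lay 29.2 kb from Id1 and inside Bcl2l1, which encodes the survival factor Bcl-xL. On the other side of Id1, sites at 39.3 kb (fold 8.58, range 6.22 to 11.6) and 42.8 kb (fold 7.40, range 5.00 to 10.6) lay inside H13, the gene of a signal peptide peptidase.

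The outermost Id1 sites were those over the printed H13 and Bcl2l1 promoters. The H13 site (chr2:152669223-152669731) lay 66.8 kb from Id1 and had a fold of 6.99 (range 5.04 to 9.45). Its inferred control level was the highest of all 18 Foxf1 sites, 3.11 times the lowest in the list, below the 5 times taken here as high. The Bcl2l1 site (chr2:152830497-152831961) lay 93.3 kb from Id1 and was both the widest, at 1465 bp, and the one of lowest fold among the 18, at 6.13 (range 4.08 to 8.87). Thus 5 of the 6 sites counted for Id1 were inside, or within 1 kb of, another protein-coding gene. The nearest Hand1 peak to Id1 was 8580 kb away.

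The Foxf1 site of Id2 (chr12:25092134-25092712) lay 1.36 kb beyond the end of the gene and 3.65 kb downstream of the start site. Its fold of 7.40 (range 5.00 to 10.6) put 57.0% of the list at or above it. The nearest Hand1 peak lay 198 kb from Id2 (fold 5.47).

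The inhibitory Smads differed in that Smad6 had sites of both factors and Smad7 had none. The Foxf1 site with the highest fold of all 18 (chr9:64114671-64115118) lay 92.8 kb upstream of the Smad6 start site, at a fold of 16.98 (range 13.2 to 21.6). It ranked 100 among the 5703 peaks, was inferred to hold 65 fragments and had a −log10 q-value of 58.7. Its counting range lay above those of 13 of the 17 other Foxf1 sites and overlapped those of the other 4. Lctl, which encodes a lactase-like protein, was nearer to this site than Smad6, at 2.24 kb.

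The next Smad6 site (chr9:64100456-64100843, 78.6 kb upstream) had a fold of 11.8 (range 8.42 to 16.2) and covered the Gm39360 promoter printed above. Lctl was its nearest protein-coding gene too, at 16.5 kb. The site nearest to Smad6 (chr9:63950318-63950832) lay 2.51 kb beyond the far end of the gene, at a fold of 6.75 (range 4.29 to 10.2), a range that does not reach that of the strongest site. Between these lay the Hand1 site (chr9:64045125-64045648), 23.2 kb upstream of the start, with a fold of 8.11 (range 5.21 to 12.1). With 47.3% of the Hand1 list at or above it, this was a peak of middling strength. Its −log10 q-value of 12.7 was above the lowest of the Foxf1 list. Smad6 was its nearest protein-coding gene, and the nearest Foxf1 summit was 55.4 kb away. For Smad7 the nearest Foxf1 peak was 204 kb away (fold 9.93) and the nearest Hand1 peak 1359 kb away.

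**Figure D3:**
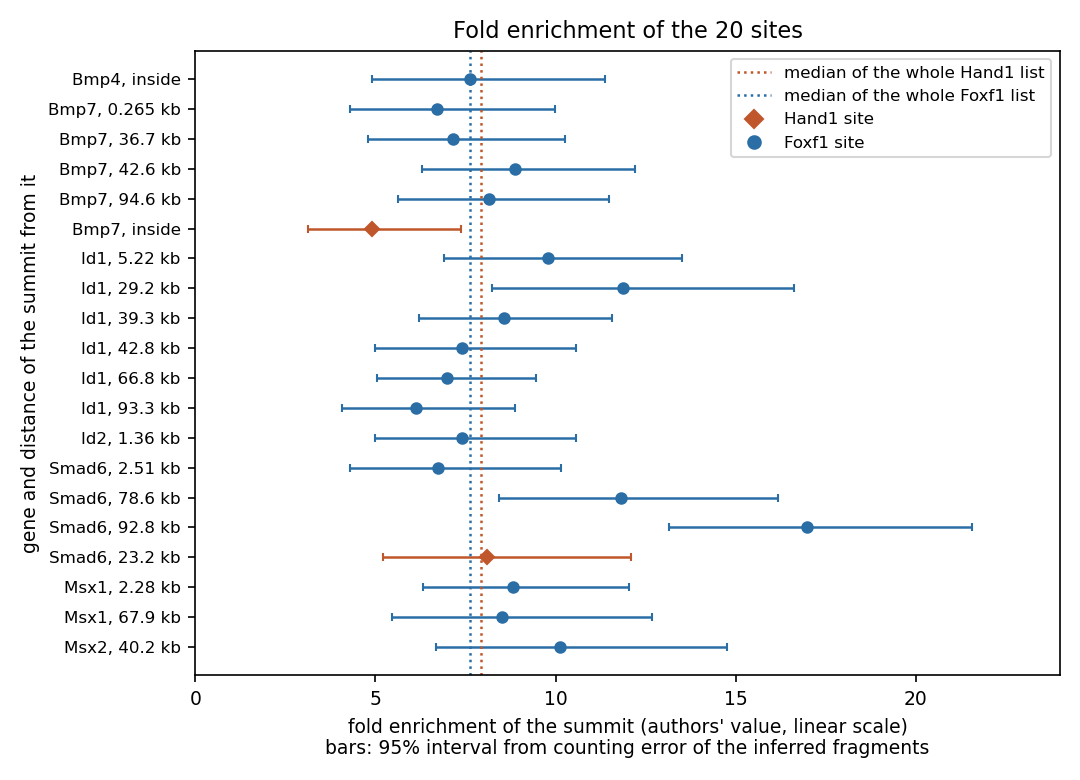
Fold enrichment (horizontal axis, the authors' value on a linear scale) of the 18 Foxf1 and 2 Hand1 sites, with 95% ranges from the counting error of the inferred fragments; dotted lines are the medians of the whole lists, 7.92 for Hand1 and 7.62 for Foxf1. Most ranges overlap each other, and that of the Smad6 site at 92.8 kb lies above 13 of the other 17 Foxf1 ranges.

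Both Msx genes, which are expressed where BMP signals act in many embryonic tissues, had Foxf1 sites. The nearer Msx1 site (chr5:37826717-37827517) lay 2.28 kb upstream of the start site, inside the lncRNA gene Gm33993, with a fold of 8.83 (range 6.32 to 12.0). It was the Foxf1 site closest to an annotated start among the 6 genes with a matched promoter. The other (chr5:37752430-37752972) lay 67.9 kb from Msx1 inside the lncRNA gene Gm40286, and Cytl1, a gene for a small secreted protein, was nearer to it. Its fold was 8.51 (range 5.47 to 12.7). The Msx2 site (chr13:53426497-53427035) lay 40.2 kb beyond the gene and inside the lncRNA gene Gm2762, at a fold of 10.1 (range 6.69 to 14.8). The predicted gene Gm38564 was nearer to it than Msx2. The nearest Hand1 peaks were 1190 kb from Msx1 and 2264 kb from Msx2.

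**Figure D4:**
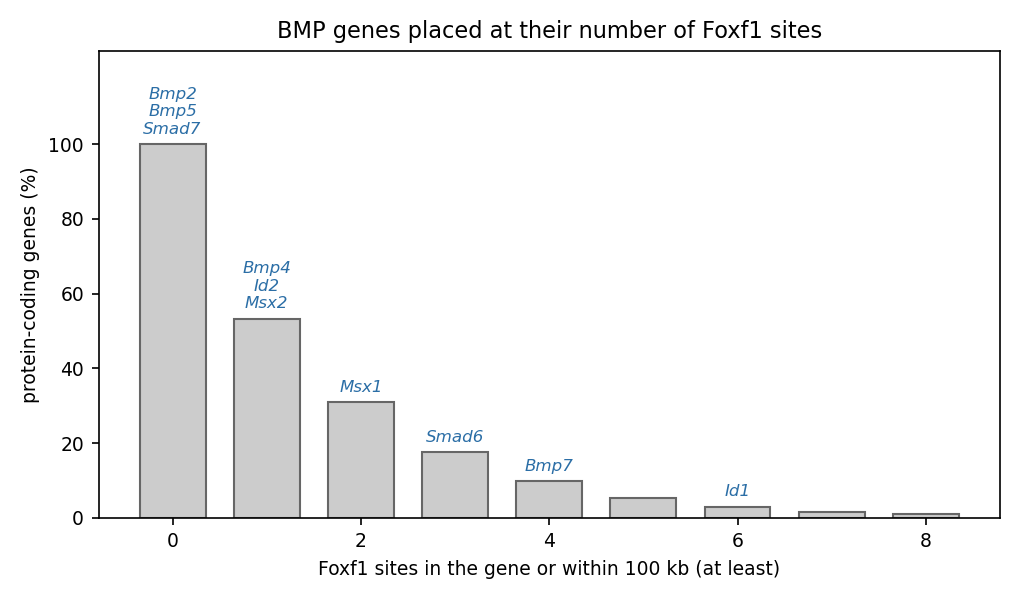
Share of all 21887 protein-coding genes (vertical axis, %) with at least the number of Foxf1 sites on the horizontal axis, with the 10 genes written above the bar of their own number. Bmp4, Id2 and Msx2 stand at 1 site or more (53.3% of genes), Msx1 at 2, Smad6 at 3, Bmp7 at 4 and Id1 at 6 (2.99%).

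The order of the genes by number of Foxf1 sites was Id1 with 6, Bmp7 with 4, Smad6 with 3, Msx1 with 2, and Bmp4, Id2 and Msx2 with 1 each. At least 4 sites were found at 9.78% of protein-coding genes, at least 3 at 17.6% and at least 2 at 31.0%. Within 10 kb, 6 of the 10 genes had a Foxf1 site, namely all those with a site except Msx2, and 22.7% of protein-coding genes did. As these genes were picked for their pathway and neighbouring genes share sites, the shares are given as a description, with no test.

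As a set, the 18 Foxf1 sites resembled the list they came from in strength and width. Their median fold was 8.33, against 7.62 for all 5703 peaks, and 10 of the 18 were above the median of the list. The top 25% of the list by fold held 5 of the sites and the top 10% held 3, at Smad6 (2 sites) and Id1. Their median width was 527 bp and that of the list 523 bp. They were inferred to hold 21 to 65 fragments, with a median of 29.5 against 29 in the list. No site of either list had a high control level, while 3.61% of all Foxf1 and 11.7% of all Hand1 peaks did. The protein-coding gene nearest to the summit was the listed gene for 9 of the 18 Foxf1 sites and for both Hand1 sites.

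Hand1 and Foxf1 shared no site at these genes. Of the 20 sites, 0 had a base in common with a peak of the other list, where 17.6% of all Hand1 peaks and 3.24% of all Foxf1 peaks did. With 2 and 18 sites, a share below those of the whole lists was not detectable.

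The limit of 100 kb decided some counts. Just inside it lay Foxf1 sites at 94.6 kb (Bmp7, fold 8.16), 93.3 kb (Id1, fold 6.13) and 92.8 kb (Smad6, fold 16.98). Just outside it lay Foxf1 peaks 101 kb from Bmp4 (fold 8.64) and 109 kb from Bmp7 (fold 10.8), and the Hand1 peak 107 kb from Bmp5.

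A further 40 genes of the pathway, from a list of ligands, receptors, signal-carrying Smads, antagonists and targets, were counted in the same way. Of these, 25 (62.5%) had a Foxf1 site and 4 (10.0%) a Hand1 site, beside 53.3% and 9.90% of all protein-coding genes. The Hand1 share was thus near the background and the Foxf1 share not far above it, and neither difference was tested. Of the 40, 3 had sites of both factors, Gdf6, Bmper and Bambi, where 7.65% of all protein-coding genes had both. A further 14 of the 40 had none, and the share of all protein-coding genes with none was not counted.

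Among 10 other ligand genes, 6 had a Foxf1 site (Bmp8a, Bmp8b, Bmp10, Gdf5, Gdf6 and Gdf7) and 2 a Hand1 site (Bmp6 and Gdf6). Bmp8a and Bmp8b are neighbours and share 2 of their Foxf1 sites. All sites counted for these neighbours lay inside Nt5c1a or Pabpc4, and that of Gdf5 lay inside Uqcc1. Those of Gdf7 were nearest to Hs1bp3, and those of Bmp10 were nearest to Gkn3 or Arhgap25. Of the 6 genes, only Gdf6 was the nearest protein-coding gene to its Foxf1 site. Gdf6, which encodes a growth and differentiation factor of the BMP family, had the 1 site where the lists coincided. The Hand1 peak (chr4:9825632-9826144) had a fold of 23.1 (range 17.6 to 29.7), rank 68 of 1134, and the Foxf1 peak (chr4:9825657-9826146) a fold of 9.90 (range 6.91 to 13.8). Both summits lay 18.5 kb from Gdf6, which was their nearest protein-coding gene. The Hand1 site of Bmp6 lay 5.49 kb from the gene at a fold of 6.66.

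Of 7 receptor genes, 4 (57.1%) had Foxf1 sites (Bmpr1a, Acvr1, Acvr2b and Acvrl1) and 0 had a Hand1 site. The shares over all protein-coding genes were 53.3% for Foxf1 and 9.90% for Hand1. The sites counted for Bmpr1a lay inside Mmrn2 and Ldb3. Acvrl1, a type I receptor best known from endothelium, had 6 Foxf1 sites, as many as Id1. Of these, 1 lay inside Acvrl1 (fold 9.72) and 1 lay 0.256 kb from an end (fold 6.88). The other 4 lay 37.4 to 95.5 kb away with another gene nearer, 1 inside Acvr1b and 3 nearest to Grasp. The Foxf1 site of Acvr1, which encodes the type I receptor ALK2, lay 0.569 kb from the gene and inside Upp2 (fold 6.70). All 4 signal-carrying Smads had Foxf1 sites, beside 53.3% of all protein-coding genes, and none had a Hand1 site. Of their 5 sites, only that of Smad4 had the listed gene as its nearest protein-coding gene, at 11.5 kb and a fold of 10.4. The strongest was counted for Smad9 (fold 13.5, range 10.9 to 16.6), and Exosc8 was nearer to it, at 0.086 kb. The site of Smad1 (fold 9.18) lay inside Mmaa. Those of Smad5 lay nearer to Gm45623 (fold 7.80) and inside Trpc7 (fold 8.17).

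Of 11 antagonist genes, 7 (63.6%) had Foxf1 sites (Nog, Chrd, Grem1, Bmper, Twsg1, Bambi and Nbl1) and 2 (18.2%) also had a Hand1 site. Over all protein-coding genes the shares were 53.3% for Foxf1 and 9.90% for Hand1. The sites counted for Grem1 lay inside Scg5. Bambi encodes a decoy receptor that lacks the kinase and is itself a BMP target. A Foxf1 site lay inside Bambi (fold 9.48, range 7.08 to 12.4) and a Hand1 site 27.3 kb from it (fold 7.44, range 4.57 to 11.5). At Bmper, whose product binds BMPs outside the cell, a Hand1 site lay 19.6 kb upstream of the start (fold 12.4, range 8.46 to 17.7). The 2 Foxf1 sites of Bmper lay 10.6 kb upstream (fold 6.63) and inside the gene (fold 8.96). The site at Nog, which encodes the secreted inhibitor Noggin, lay 1.07 kb from the gene (fold 6.13). That at Twsg1 lay 0.085 kb from the start and covered all 300 bases of its promoter (fold 6.25), the only promoter of the 40 genes with a table entry that a site of that gene covered.

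Of 8 further targets, 4 (50.0%) had Foxf1 sites (Id3, Msx3, Hey1 and Atoh8) and 0 had a Hand1 site. Beside these stand 53.3% of all protein-coding genes for Foxf1 and 9.90% for Hand1. The site counted for Msx3 lay nearer to Spef1l. Id3 had 5 Foxf1 sites, with folds from 5.28 to 9.44, and 5.37% of protein-coding genes had at least 5. The site nearest to Id3 lay 4.57 kb from its end (fold 9.34, range 6.27 to 13.4). Only that site had Id3 as its nearest protein-coding gene, and the others were nearest to Rpl11 or E2f2. Hey1, which encodes a bHLH repressor, had a site inside the gene (fold 9.69). Atoh8 had 4 sites, the strongest 25.6 kb upstream of its start at a fold of 10.2 (range 7.61 to 13.4). The other 4 had no site in either list.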

How the data were processed

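Per the submitters' processing notes, the build was mm10 and the tools included Trim Galore 0.6.6, Bowtie2 2.3.4.3, SAMtools 1.9, deepTools 3.5.0 and MACS2 2.2.7.1, with no role stated. The control, the threshold and any pooling of the Foxf1 libraries are not given in the sources used here. The fold enrichment (a ratio), the −log10 p-value, the −log10 q-value and the score are the authors' deposited values per peak, and every line counted as 1 peak. Genes came from RefSeq (GRCm38.p6), and all 50 symbols matched. Depth is unknown. The fragments k and control level λ at a summit were solved from fold = (k + 1)/(λ + 1) and the Poisson tail of k at mean λ. In both lists k came out whole, within 0.05, for 100% of peaks. Exact Poisson 95% limits of k at fixed λ gave the counting ranges, which cover counting error only. Scripts (Python 3.11.15, pandas 2.3.3, scipy 1.17.1) were tested on simulated data. The 10 genes and all lists were chosen with earlier results of these data known. The text names these genes and, of the other pathway genes, those with a site. Alternatives varied distance, threshold, assignment and control level.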

Additional observations from a re-analysis of the deposited data

How the results depend on the processing

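Of 63 alternatives over the 7 counts, 42 stayed within 1.5 times the main count and 21 moved. Some of the 42 could not have moved. Foxf1 peaks started at a −log10 q-value of 10.01, so a limit of 10 removed none of them. Cutting the Foxf1 list left the Hand1 counts as they were. No site of the listed genes had a high control level, so leaving out such peaks removed none. A limit of 50 kb left 8 Foxf1 sites at targets. A limit of 10 kb left 2 Foxf1 sites at ligands and 4 at targets, 1 gene with a Hand1 site and 0 Hand1 sites at targets. A limit of 200 kb, chosen after seeing the data, gave 9 Foxf1 sites at ligands, 4 Hand1 sites at ligands and 2 at targets, and 5 genes with a Hand1 site. Raising the limit on −log10 q to 10 for both factors left 0 Hand1 sites at ligands and 1 gene with a Hand1 site. Raising it to 20 left 0 Hand1 sites at ligands, 0 at targets and 0 genes with one, and 1 Foxf1 site at ligands, 6 at targets and 4 genes with one. Requiring the listed gene to be the nearest protein-coding gene left 4 Foxf1 sites at targets. Cutting the Foxf1 list to the length of the Hand1 list by fold left 0 sites at ligands, 5 at targets and 3 genes with one. The cause of each is the alternative's own construction, since the limits remove or add peaks. Merged regions, peaks of high control level and the any-base rule changed none of the 6 site and gene counts by over 1.5 times. The count of 0 shared sites was also 0 under the 3 alternatives run. Only the rule of summits within 500 bp could have raised it. An overlap of at least 50% of the shorter peak, or leaving out peaks of high control level, could only have lowered it. Of 200 alternatives over the 20 counts of single genes, 169 stayed within 1.5 times and 31 moved. The main count was 0 at 3 genes for Foxf1 and at 8 for Hand1. Alternatives that only remove peaks could not move a count of 0, so the 169 do not measure how stable the counts were. No paired analysis was possible because each factor had a single list, which also meant that no replicate could be left out. The unknown depth and the unequal q-value limits bound what the absence of a site can show.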

Other observations

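Several sites had exactly the same deposited values. The Id2 site and the Id1 site at 42.8 kb had the same fold and −log10 q-value, which a total of 21 peaks in the Foxf1 list shared, and both were inferred to hold 28 fragments. Over the whole list there were 1788 distinct folds for 5703 peaks, so ranks among peaks of middling fold have many ties.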
